A study of Mus musculus with 2 samples.

Results

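Mouse chromosome 11 carried more BRD2 loops than any other chromosome of the list. The loops are pairs of places that BRD2-bound chromatin joined in the embryonic stem cell line V6.5, as measured by ChIA-PET. In this assay an antibody to the protein pulls down chromatin, DNA ends held close together are ligated, and paired sequencing shows which places were joined. All loops of the deposited list whose first chromosome entry was chromosome 11 were taken, 814 of 7732, or 10.5%. The chromosome was chosen by its number of listed loops, which was high in total and for its number of genes, so this number is given as a description.

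Both samples, replicates 1 and 2 by their labels, are wild-type mES cells that received no treatment, and thus form a single group of 2 with genotype WT and antibody Brd2. The cells grew on a feeder layer of irradiated mouse embryonic fibroblasts with FBS and LIF, so feeder cells may have been present. The authors merged the replicates into a single list, so the values below have no replicate error and no comparison between conditions was possible. The sequencing depth is unknown, and a place without a listed loop cannot be called free of contacts. Each loop has a score, a whole multiple of 1000 in all 814 loops, whose unit no header states. The first pair of position columns was taken for the outer edges of a loop, left and right, which is an inference from the file. Positions are on mm9. Intervals are exact 95% intervals for counting error only. Loops share anchors and are not independent, so such intervals can be too narrow, and differences between parts of the list were not tested.

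BRD2 belongs to the BET family, whose bromodomains bind acetylated lysines of histones, and it sits mainly at active promoters and enhancers. BET proteins help bring in transcription regulators at these places, and loops bound by them join regulatory elements with each other and with promoters. Chromosome 11 is known as a gene-dense mouse chromosome. RefSeq's gene table (GRCm38.p6) lists 1609 protein-coding genes on it, 7.44% of the 21631 on the 20 chromosomes that hold loops. Among them are Polr2a, the largest subunit of RNA polymerase II, the Mediator subunits Med1, Med9, Med13, Med24 and Med31, the kinase gene Cdk12 and the elongation factor genes Supt6 and Supt4a. Trp53, Stat3, which LIF activates, the Polycomb gene Suz12, the developmental regulator Sox9 and the Hoxb genes Hoxb1 and Hoxb9 also lie there. The table is on another build than the loops, so no gene was placed at a loop, and the text names places by position.

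BRD2 loops were listed over the full length of the chromosome but crowded into its distal part. The first loop edge lay at 3027115 and the last at 121098145, an extent of 118 Mb. Each loop was put in the 1 Mb bin that holds the midpoint between its edges. The 119 bins held a mean of 6.84 and a median of 3 loops. The stretch from 100 to 120 Mb held 238 loops, or 11.9 per bin, and that from 60 to 80 Mb held 187, or 9.35 per bin. From 80 to 100 Mb there were 155 loops, and from 40 to 60 Mb there were 106. The stretch from 20 to 40 Mb was the poorest of the full stretches of 20 Mb, with 39 loops, 1.95 per bin, and 12 of its 20 bins empty. The 17 bins before 20 Mb held 71 loops, most of them before 7 Mb and after 19 Mb. The mean score varied less along the chromosome than loop number. It was 3412 from 60 to 80 Mb, 2853 from 100 to 120 Mb and 2692 from 20 to 40 Mb.

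**Figure D1:**
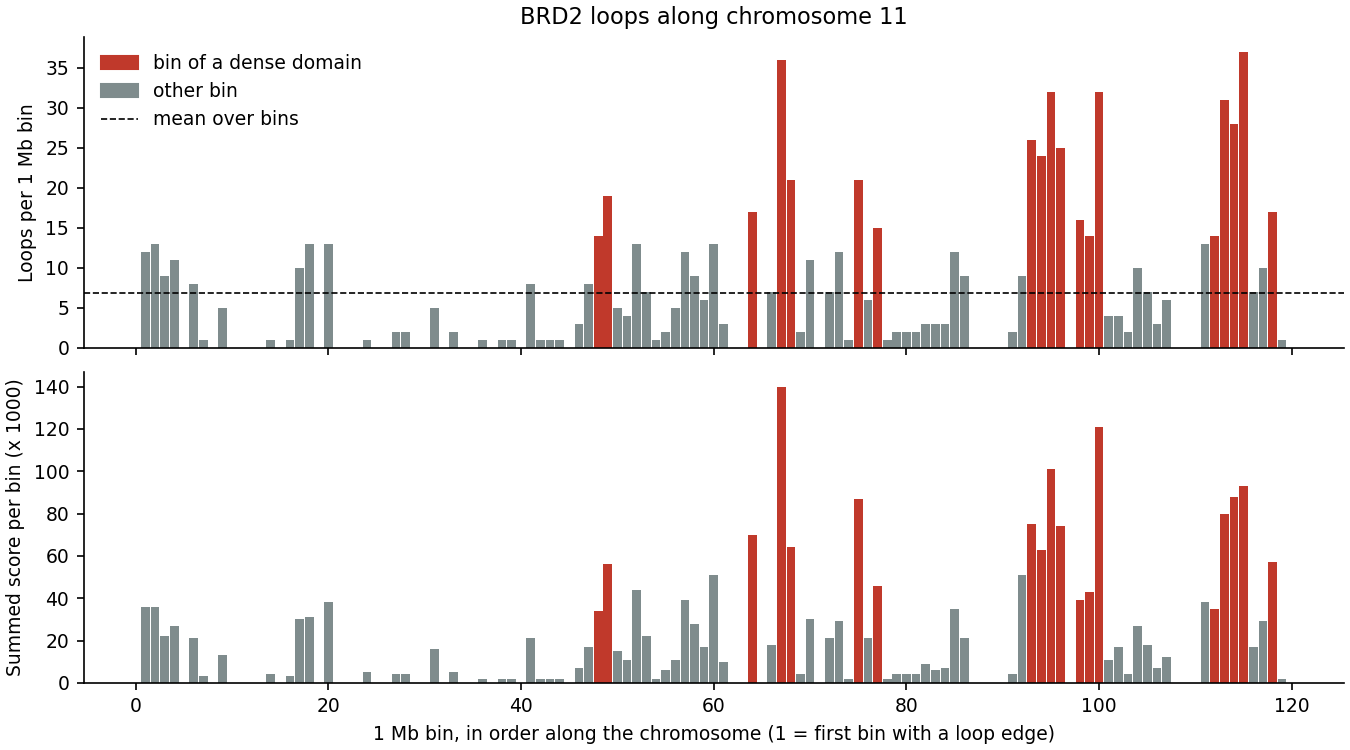
Loops (upper panel) and summed score in units of 1000 (lower panel) of the 119 bins of 1 Mb on chromosome 11, in order along the chromosome. Red bars are bins of the 9 dense domains, grey bars the other bins, and the dashed line is the mean of 6.84 loops per bin. The fullest bins hold 37 and 36 loops and lie far apart, and 33 bins hold none.

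Most of the loops came from few bins. The 12 bins with most loops, which make up the top 10% of bins, held 332 loops, or 40.8%, and 17 bins were enough for at least 50% of the loops. Bins with 20 or more loops numbered 11 and held 313 loops, or 38.5%. Another 33 bins held 1 to 4 loops, together 64 loops, and 33 bins, or 27.7% (19.9 to 36.7%), held none. The variance of loops per bin was 11.04 times the mean. Neighbouring bins resembled each other in part, with Pearson's r of 0.46 and Spearman's rho of 0.38 between the loop numbers of 118 neighbouring pairs. These pairs share bins and, in places, loops and anchors of the same cluster.

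The 10 fullest bins all lay beyond 69 Mb and held 292 loops, or 35.9%. The bin from 117 to 118 Mb came first with 37 loops (26.1 to 51.0), closely followed by the bin from 69 to 70 Mb with 36 (25.2 to 49.8). The order of these 2 bins and of their next neighbours in rank lies within counting error. The bins from 102 to 103 Mb and from 97 to 98 Mb held 32 each, and the bin from 115 to 116 Mb held 31. The bins from 116, 95, 98 and 96 Mb followed with 28, 26, 25 and 24 loops, and the bin from 77 to 78 Mb was the tenth with 21 loops. The bin from 70 to 71 Mb also held 21 and had the lower summed score, which set the order of the tied pair.

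By summed score the leading bins came in another order, though 9 of the 10 fullest bins were also among the first 10 by summed score. Across all 119 bins, loop number and summed score had a rho of 0.99 and an r of 0.98. Each loop adds to both, so this follows in part from the sum. The bin from 69 to 70 Mb had the highest summed score, 140000, ahead of 121000 in the bin from 102 to 103 Mb and 101000 in the bin from 97 to 98 Mb. The bin from 117 to 118 Mb had 93000, since its loops averaged a score of only 2514 and none exceeded 5000. In the bin from 69 to 70 Mb the mean was 3889 and the highest score 12000. Of its 36 loops, 21 lay above the lowest listed score of 2000, compared with 13 of 37 in the bin from 117 to 118 Mb. Over the 53 bins with 5 or more loops, the mean score ran from 2000 to 5667 around a median of 2917. The highest of these, 5667, belonged to a bin of only 9 loops, from 94 to 95 Mb. The lowest, 2000, belonged to the bin from 109 to 110 Mb, where none of 6 loops exceeded the lowest score. Loop number and mean score were related with a rho of 0.28 and an r of 0.21 across these 53 bins, and with a rho of 0.50 and an r of 0.33 across all 86 bins with loops. Of the 86, 33 held only 1 to 4 loops, many of them with a mean at the lowest score of 2000. In 6 bins all loops were over 1 Mb and at that score. Why the rho was higher across all 86 bins was not tested. The bins share the depth of a single merged list.

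**Figure D2:**
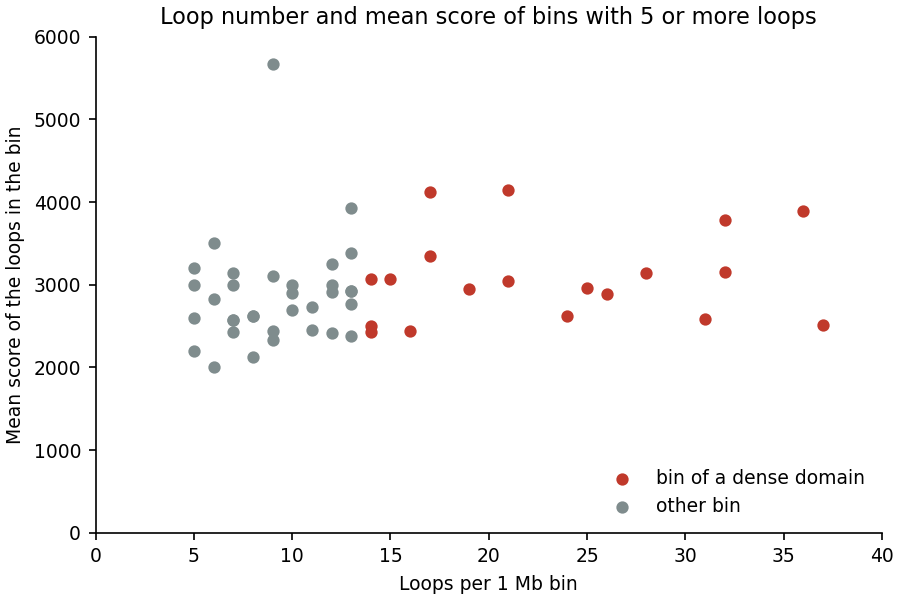
Mean score of the loops in a bin (vertical axis) against the number of loops in it (horizontal axis), for the 53 bins with 5 or more loops. Red points are bins of dense domains and grey points other bins. The bin with the highest mean, 5667, has 9 loops, and the bin with most loops, 37, has a mean of 2514.

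Runs of neighbouring bins with at least 2 times the mean number of loops were taken as dense domains. This threshold was 13.7 loops, so 3 bins with 14 loops fell just inside and 6 bins with 13 just outside. There were 9 such domains. Their 19 bins, or 16.0% of all bins, held 439 loops, or 53.9%, and 56.2% of the summed score. With these bins and this threshold, no domain began before 50 Mb. Of the bins with 13 loops just outside, those from 4, 20 and 22 Mb lay before 50 Mb.

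The largest domains were 4 bins long. The domain from 114 to 118 Mb held 110 loops in bins of 14, 31, 28 and 37. It comprised 24 connected groups, that is, sets of anchors joined directly or through other anchors by loops of up to 1 Mb, and 10 of these were single loops. The domain from 95 to 99 Mb held 107 loops in bins of 26, 24, 32 and 25, in 20 groups. Neither consisted mainly of 1 group, since the largest held 19 loops (17.3%) in the domain from 114 Mb and 14 loops (13.1%) in the domain from 95 Mb. The domain from 100 to 103 Mb, with 62 loops in bins of 16, 14 and 32, had 22 groups and its largest held 15 loops. It was a single run only through a loop over 1 Mb whose midpoint fell there. With loops of up to 1 Mb alone, the bin from 101 to 102 Mb held 13 loops, below the threshold of 13.2 then, and the chromosome had 10 domains. The bin from 99 to 100 Mb between these last 2 domains held no loop midpoint and only 2 loop edges.

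The domain from 69 to 71 Mb had fewer groups for its number of loops than the domains above. It held 57 loops in bins of 36 and 21, with only 7 groups, and 53 anchors with a mean of 2.15 partners. The domain from 50 to 52 Mb held 33 loops in 5 groups, and its largest group ran across its left border, from 49800199 to 50253625. The remaining 4 domains were single bins. Those from 66 to 67 Mb and from 77 to 78 Mb, with 17 and 21 loops, were each made mainly by 1 group, which held 16 loops in either case. Those from 79 to 80 Mb and from 120 to 121 Mb, with 15 and 17 loops, had largest groups of 8 and 6 loops.

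The domains with the highest mean score were not those with most loops. The mean was 4143 in the domain from 77 Mb and 4118 in that from 66 Mb. It was 2691 in the domain from 114 Mb and 2727 in that from 50 Mb. The share of loops above the lowest score was 71.4% in the domain from 77 Mb (47.8 to 88.7%), against 36.4% in that from 114 Mb (27.4 to 46.1%) and 33.3% in that from 50 Mb (18.0 to 51.8%). Over all dense domains this share was 44.2% (39.5 to 49.0%), and in the rest of the chromosome it was 39.5% (34.5 to 44.6%), so that the intervals overlapped. The median loop length was 23.1 kb inside the domains (20.5 to 26.7 kb) and 33.7 kb outside them (24.4 to 38.8 kb), again with overlapping intervals.

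Long stretches with few or no loops lay both before the first domain, which began at 50 Mb, and between domains. The 33 empty bins formed 19 runs, 11 of them a single bin. The longest were 4 bins each, from 12 to 16 Mb and from 89 to 93 Mb, followed by 3 bins from 23 to 26 Mb and from 110 to 113 Mb. Both runs of 3 were bordered by a bin of 13 loops on 1 side. With loops of up to 1 Mb alone, the widest uncovered gap ran from 35654056 to 40507884, or 4.85 Mb, and the next from 88929717 to 93747067, or 4.82 Mb. These loops lay in 190 separate covered stretches that together spanned 24.0 Mb, or 20.3% of the extent. The deepest stack was 11 loops, but only over the 0.248 kb of a shared anchor at 69608817 to 69609064, where loops that end and begin overlap. Over a longer distance, 9 loops lay over the 48.2 kb from 66746755 to 66794974.

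The strongest loop of the chromosome joined 66825121 to 66831694. It was 6.57 kb long with a score of 20000, and 14 loops elsewhere in the list had a higher score. The second, from 102975976 to 102994423, was 18.4 kb long with a score of 17000. The third, from 102964205 to 103020556, had a score of 14000 and enclosed the second. Next came, with 12000 each, the pair 62308112 to 62325792 and the pair 69393633 to 69427693. The left edge 69393633 also began the loop to 69413954, which scored 10000, and thus served 2 of the 10 strongest loops. A score of 11000 was held by the loops from 51451466 to 51464934, from 69224655 to 69231741 and from 93999756 to 94011071. The loop from 116938026 to 116943939 scored 10000 and was the shortest of the 10, at 5.91 kb. Dense domains held 53.9% of all 814 loops. Of the 10 strongest loops, 8 lay in them, and 3 of these in the bin from 69 to 70 Mb. The other two, from 62308112 and from 93999756, lay in bins of 13 and 9 loops.

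Very strong loops were few, on chromosome 11 as on the other chromosomes. Scores of at least 10000 were seen in 10 of 814 loops of chromosome 11, or 1.23% (0.591 to 2.25%). On the other chromosomes 143 of 6918 loops had such scores, or 2.07% (1.74 to 2.43%), and the intervals overlapped. Lower thresholds gave closer shares. Scores of at least 5000 made up 13.02% on chromosome 11 (10.8 to 15.5%) and 12.995% elsewhere (12.2 to 13.8%). The share above the lowest score was 42.0% (38.6 to 45.5%) on chromosome 11 and 42.2% (41.0 to 43.4%) elsewhere. The mean score was 2986 ± 1796 (SD over 814 loops) on chromosome 11 and 3091 ± 2297 (SD over 6918 loops) on the other chromosomes.

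Most loops of chromosome 11 were short. The median length was 25.4 kb (23.1 to 30.1 kb) on chromosome 11, 31.01 kb on chromosome 17, 23.0 kb on chromosome 19 and 28.9 kb (27.8 to 29.9 kb) over all other chromosomes together. Loops under 10 kb numbered 154 and loops of 10 to 20 kb 187, while 330 had 20 to 100 kb and 114 had 100 to 500 kb. Only 3 lay between 500 kb and 1 Mb. Longer loops had lower scores, with rho of -0.32 across the 814 loops and r of -0.28 on log10 scales. The loops share the depth and the unknown thresholds of the caller. Above the lowest score lay 64.9% of the loops of 5 to 10 kb (56.8 to 72.4%), 53.5% of those of 10 to 20 kb (46.1 to 60.8%), 33.8% of those of 20 to 50 kb (27.3 to 40.9%), 37.1% of those of 50 to 100 kb (28.9 to 46.0%) and 22.8% of those of 100 to 500 kb (15.5 to 31.6%). The fall was thus not steady from class to class. On the other chromosomes, the shares in these 5 classes were 56.8, 52.7, 42.7, 32.1 and 27.9%.

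**Figure D3:**
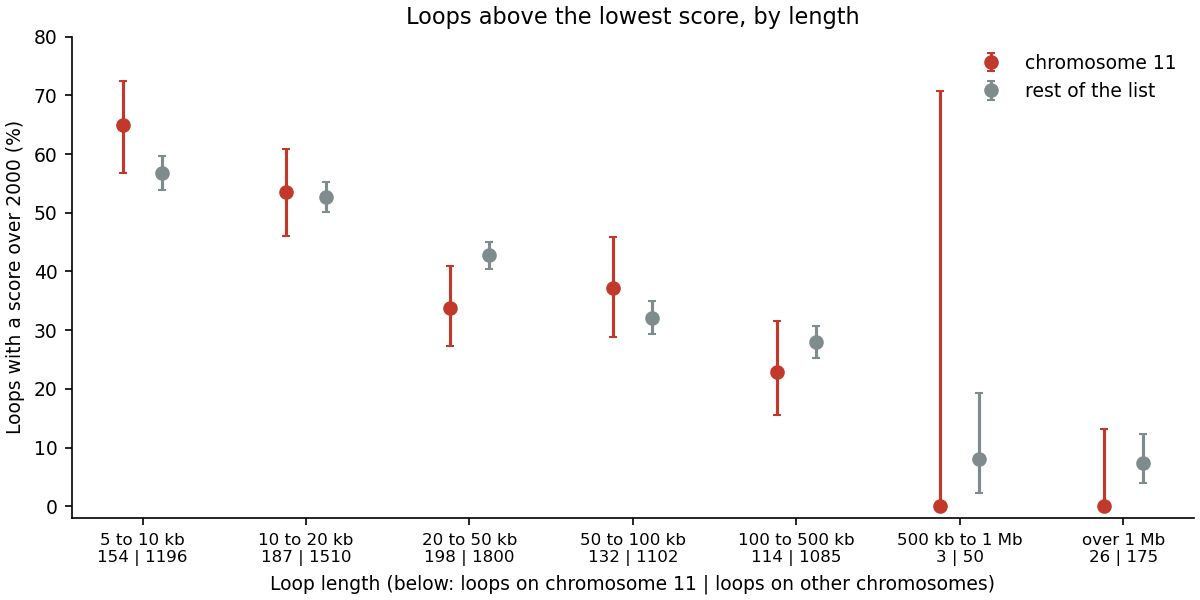
Percent of loops with a score over 2000 (vertical axis) by loop length, on chromosome 11 (red) and on the other chromosomes (grey). Bars are exact 95% intervals, and the loop numbers stand under each class. On chromosome 11 the share is 64.9% at 5 to 10 kb and 22.8% at 100 to 500 kb, and none of the 26 loops over 1 Mb exceeds 2000.

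Loops over 1 Mb were all at the lowest score. They numbered 26, or 3.19% (2.10 to 4.65%), on chromosome 11, and 175, or 2.53% (2.17 to 2.93%), elsewhere. On chromosome 11 none of the 26 exceeded a score of 2000 (0 to 13.2%), and elsewhere 13 of 175 did (7.43%, 4.01 to 12.4%). Of the 26, 23 were longer than 5 Mb, with a median of 25.7 Mb for all 26. The longest, of 103 Mb, ran from 11736837 to 114965157. The midpoints of 25 of the 26 fell into bins that held neither of their edges, and 6 bins held a midpoint only because of such loops. Of their 52 ends, 33 lay at anchors that also had a loop of up to 1 Mb. In dense domains lay 20 of the 52 ends (38.5%), and 856 of 1576 ends (54.3%) of loops of up to 1 Mb. Loops of up to 1 Mb make up nearly all of the loops that defined the domains, so part of their share follows from the rule. A pair of different dense domains was joined by 2 of the 26, from 100940072 to 115726064 and from 77845593 to 96574874.

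Anchors of chromosome 11 were often shared. Edges of opposite kind were joined into 1 anchor where the right edge followed the left by under 5000 bp, which gave 939 anchors with a mean of 1.73 ± 1.08 partners (SD over anchors). Of these, 406, or 43.2% (40.04 to 46.5%), had 2 or more partners, compared with 48.1% (43.8 to 52.4%) on chromosome 17, 38.6% (33.5 to 43.9%) on chromosome 19 and 37.1% (36.1 to 38.1%) over all other chromosomes. On chromosome 15, with 3.56 loops per Mb, the share was 41.1%. Chromosome 11 was chosen for its many loops, and more loops can give anchors more partners, so its share can follow in part from that choice. Counting loops of up to 1 Mb, 50.9% of the 438 anchors in dense domains had 2 or more partners (46.1 to 55.7%), and 34.2% of the 482 anchors outside them (30.001 to 38.7%). Of the 72 anchors with 4 or more partners, 57 lay in dense domains. Anchors with more partners add loops to their bin, so this difference follows in part from how the domains were chosen. Neighbouring anchors lay a median of 17.2 kb apart inside the domains and 27.4 kb outside them, and closer anchors likewise follow in part from choosing bins with many loops. Neighbouring anchors were the ends of 457 of the 788 loops of up to 1 Mb (58.0%), while 331 spanned at least 1 anchor in between.

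No anchor had more than 7 partners, whereas the maximum was 10 on chromosome 17 and 11 elsewhere in the list. The anchor at 69608817 to 69609064, where the 11 loops stacked, had 7 partners, 4 upstream and 3 downstream. The 7 loops to these partners are among the 11. The anchors at 117836802 to 117836926 and at 20040182 to 20040821 had 7 as well. The anchor at 20040182 lay outside the dense domains, and 6 of its partners were downstream. With 6 partners each followed 7 anchors. Among these, the anchor at 66831279 to 66831694 had the largest summed score of the 10, 40000, since it was the right end of the strongest loop. The anchor at 102975976 to 102977062 had a summed score of 34000 and was the left end of the second strongest. Those at 62325038 to 62325792 and 77728301 to 77728618 had 24000 each. The anchor starting at 69571915 had all 6 partners downstream and a summed score of 19000. The anchors at 19825228 to 19825494 and 97560983 to 97561305 had 18000 each.

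With loops of up to 1 Mb, the anchors formed 239 connected groups, of which 127 were single loops, and 24 groups of 10 or more loops held 336 loops, or 42.6%. The group with most loops lay outside the dense domains. It ran from 18918920 to 20642335, a span of 1.72 Mb, with 21 loops between 19 anchors and 3 closed triangles, that is, sets of 3 anchors joined pairwise. Its loops were split over bins of 10 and 13. The second, from 69571915 to 69805252, had 19 loops between 15 anchors within 233 kb and 5 triangles. The third, from 117740371 to 117895929, also had 19 loops but only 10 anchors within 156 kb, so that 42.2% of its anchor pairs were joined, with 14 triangles. Among its anchors, 5 that spanned 86.9 kb were all joined to each other. The fourth, from 70028225 to 70578296, had 18 loops between 16 anchors, and the fifth, from 49800199 to 50253625, had 17 loops between 17 anchors and a single triangle.

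The largest groups of the domains from 66 and 77 Mb had higher mean scores than the 5 groups with most loops, whose means were 2353 to 3211. They did not have the highest means. The smaller groups from 102636009 and from 69393633, with 13 loops each, had means of 5000 and 4615. The group that made up most of the domain from 66 Mb, from 66719438 to 66838662, joined 16 of 28 possible pairs of its 8 anchors, or 57.1%, with 10 triangles and a mean score of 4250. Its left anchors, from 66719438 to 66746754, were each joined to anchors at its right side from 66794975 onward, by loops of 69.1 to 119 kb. The scores of these long loops were 2000 to 4000, while the loop of 6.57 kb at the right side had 20000. The group from 77551957 to 77761641 in the domain from 77 Mb had 16 loops between 10 anchors, with 10 triangles and a mean score of 4063. Between 77689800 and 77728618 it held a cluster of 5 anchors within 38.8 kb, with a loop for each of the 10 pairs among them. The strongest of these, from 77706523 to 77720756, had a score of 8000.

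**Figure D4:**
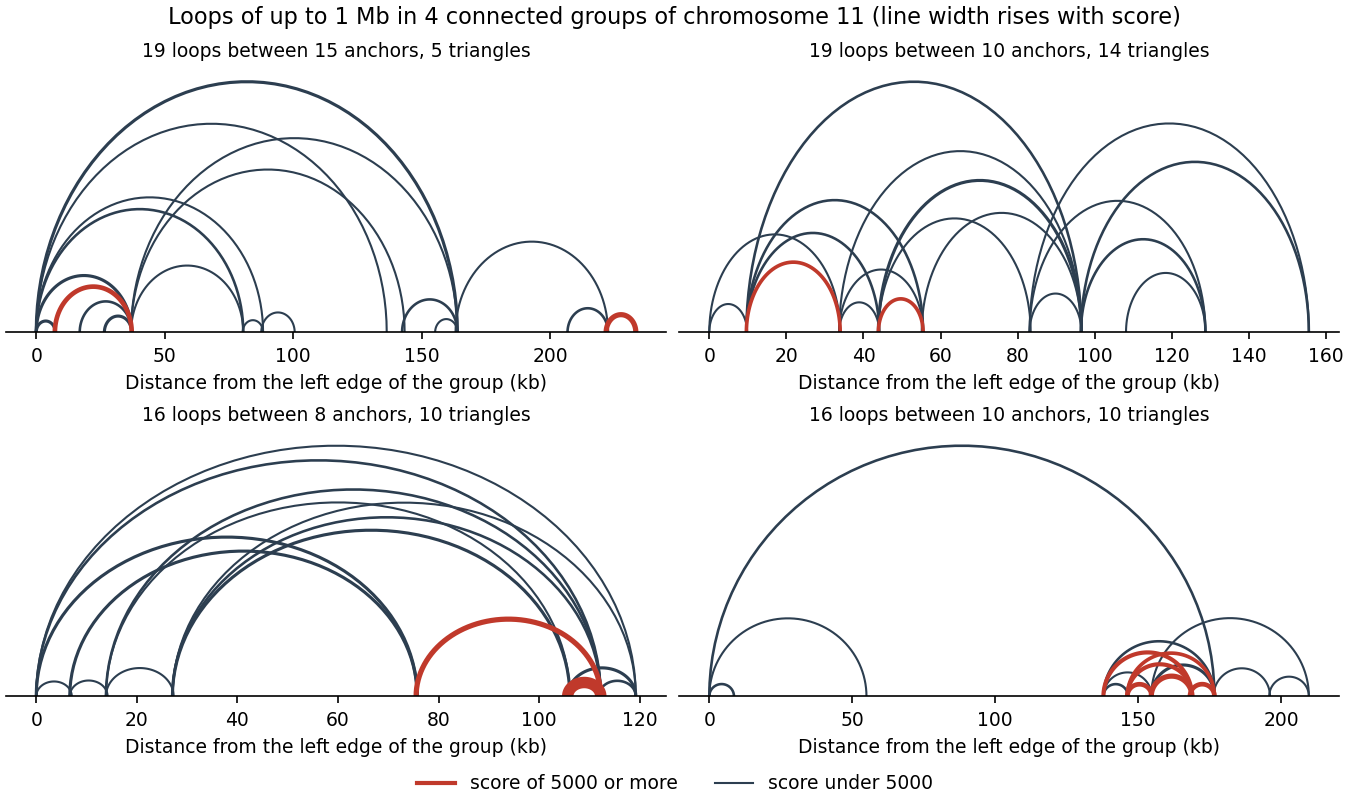
Loops of up to 1 Mb drawn as arcs in 4 connected groups, with the distance from the left edge of each group in kb on the horizontal axis. Line width rises with score and red marks a score of 5000 or more. Upper row: the groups from 69571915 (19 loops, 15 anchors) and from 117740371 (19 loops, 10 anchors). Lower row: the groups from 66719438 (16 loops, 8 anchors) and from 77551957 (16 loops, 10 anchors).

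Loops over 1 Mb joined some of these clusters into larger sets. With all loops counted there were 232 groups. The largest then had 37 loops between 33 anchors and spanned 83.6 Mb, from 12364819 to 95937806. It held only 5 triangles. It was joined through loops at the lowest score.

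Set against the other 19 chromosomes, with loops of all lengths counted, chromosome 11 had loops in a larger share of its bins. It held 6.89 loops per Mb of extent, against 6.43 on chromosome 17, 4.88 on chromosome 19 and a median of 2.64 over the other 19. The share of empty bins, 27.7%, was the lowest of the 20, with 31.7 to 83.7% on the others, 40.2% on chromosome 17 and 39.0% on chromosome 19. With loops of up to 1 Mb alone it was 32.8% on chromosome 11, so this rank depends on midpoints of loops over 1 Mb. The share of loops in the top 10% of bins, 40.8% (37.4 to 44.3%), was also the lowest, with 41.3 to 86.2% on the others and 48.7% on chromosome 17. The 41.3%, on chromosome 19, lies within that interval. With loops of up to 1 Mb alone the share on chromosome 11 was 41.9%, and the others were not recomputed. The variance over the mean, 11.04, took rank 5, and chromosome 17 was first with 14.5. Both shares were lower on chromosomes with more loops per Mb (rho of -0.67 for the top bins and -0.88 for the empty bins, across 20 chromosomes of the same list), so the ranks follow in part from the number of loops. Connected groups of loops of up to 1 Mb numbered 2.02 per Mb, the most of the 20, compared with 1.47 on chromosome 17 and 1.79 on chromosome 19. Chromosomes 11, 17, 19, 7 and 2 took the first 5 ranks by groups per Mb as by loops per Mb. The first rank in groups thus also follows in part from the number of loops. A group held a mean of 3.30 loops on chromosome 11, 4.29 on chromosome 17 and 2.70 on chromosome 19. Groups of 10 or more loops held 42.6% of the loops of up to 1 Mb on chromosome 11, against 56.2% on chromosome 17.

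**Figure D5:**
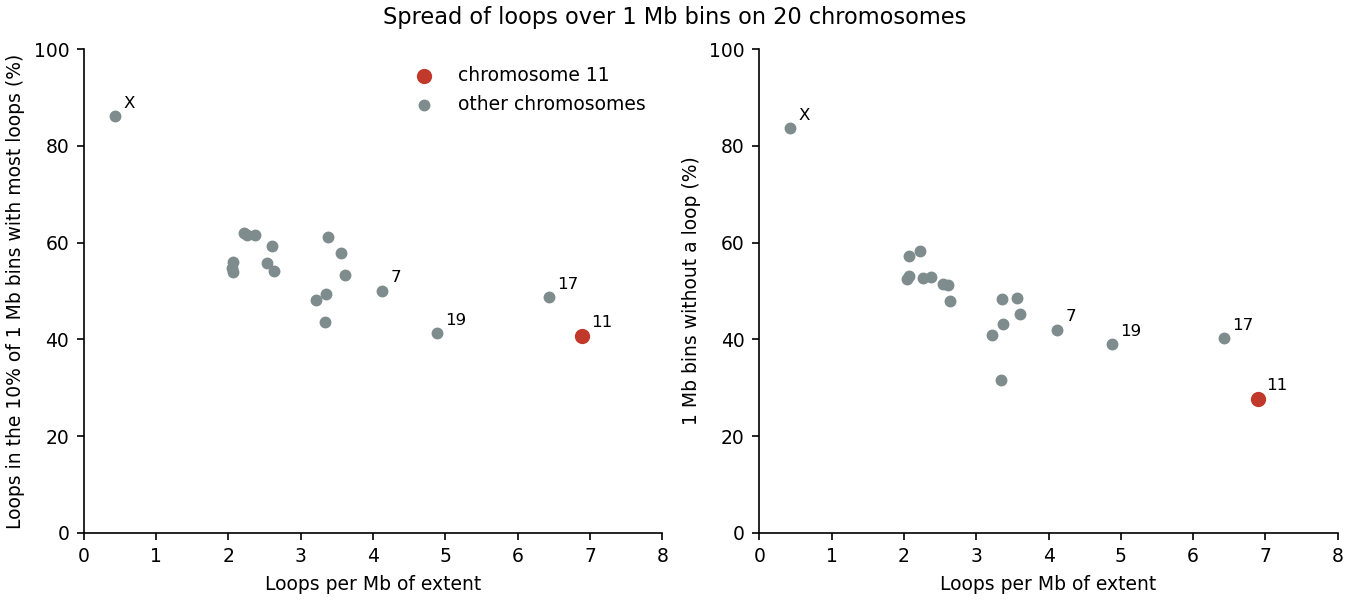
Percent of loops in the 10% of 1 Mb bins with most loops (left) and percent of 1 Mb bins without a loop (right) against loops per Mb of extent, for 20 chromosomes. With loops of all lengths counted, chromosome 11 (red) has the most loops per Mb, 6.89, and the lowest value on both vertical axes, 40.8% and 27.7%.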

How the data were processed

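BRD2 ChIA-PET loops of 2 replicates of untreated wild-type V6.5 cells were used as a single merged list of high-confidence interactions, per the file headers. The score of each loop is the authors' own value as deposited, with no unit stated. Cutadapt, Bowtie and mm9 are named in the submitters' processing notes. For the interaction caller, its thresholds and the depth, the sources used here give nothing. The second pair of position columns only copies the left edge (814 of 814 loops) and was left out.

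Loops were binned by midpoint in fixed bins of 1000000 bp. Bin counts have exact Poisson intervals, shares exact Clopper-Pearson intervals and medians binomial order-statistic intervals, all at 95%. The text names the 10 loops with the highest score, the 10 bins with most loops, the 10 anchors with most partners, the 5 groups with most loops and all dense domains. The groups from 66719438 and 77551957 were added after their values were seen. The members, lists and limits, such as 1 Mb for near loops, were chosen with earlier results of these data known. The genes named were picked for their roles. No chance test was run. Steps were tested on simulated data and run with scipy 1.17.1, numpy 2.4.6 and pandas 2.3.3 under Python 3.11.15, with matplotlib 3.10.9 for plots. Alternatives were other bins, score and length limits, edges in place of midpoints, 1 loop per connected group, other thresholds for dense bins and wider joining of edges.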

Additional observations from a re-analysis of the deposited data

How the results depend on the processing

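Of 74 recomputed values, 37 stayed within their interval or within 1.5 times the value of the report, and 37 moved. Only the rho of score and length could change sign, and it stayed negative in each setting. Bins of 500 kb gave 28 dense domains with 72.0% of the loops, 46.4% of loops in the top bins, 42.6% of bins empty and a highest summed score of 78000. Bins of 2 Mb gave 65 loops in the fullest bin, 5 domains with 42.1% of the loops, 34.4% in the top bins and 11.7% empty, and did not touch the domains from 66, 77, 79 and 120 Mb. Bins shifted by 500 kb gave 63.4% of the loops in 13 domains, which touched 7 of the 9 and not those from 79 and 120 Mb. A dense domain before 50 Mb then appeared across the bin border at 20 Mb. With a score of at least 3000, 342 loops remained, with 21 in the fullest bin, a variance over mean of 5.89, 44.5% of bins empty, 15 domains with 65.5% of the loops, a median length of 16.0 kb and 500 anchors, 25.4% of them with 2 or more partners. All 9 domains were touched under this setting, and the fullest bin was then that from 69 Mb. With 1 loop per connected group, 232 loops remained, with 8 in the fullest bin, a highest summed score of 39000, a variance over mean of 2.21, 32.8% in the top bins, 14 domains with 58.6% of the loops, a median length of 15.4 kb and 59.9% above the lowest score. Only 4 of the 10 fullest bins were then among the top 10, and the domains from 50 and 66 Mb were not touched, so the ranks of bins depend on how loops are grouped. The groups here were joined by loops of all lengths, also by those over 1 Mb, which link distant clusters. This setting keeps the strongest loop of a group by construction. Counting edges gave 78 in the fullest bin, a summed score of 282000 and a variance over mean of 22.2, since each loop counts at both ends, and the same 10 fullest bins. At 1.5 times the mean there were 19 domains with 72.1% of the loops, and some began before 50 Mb, such as the bins from 20 and 22 Mb. At 3 times the mean there were 5 with 38.5%, which did not touch those from 50, 66, 79 and 120 Mb. Loops longer than 10 kb had a median of 38.3 kb, 36.7% above the lowest score and a rho of score and length of -0.26. Where construction does not show it, the cause was not tested. Leaving out a replicate was not run because values per replicate were not used. No paired analysis was possible because there is a single group and no test. Depth is unknown and 58.0% of loops have the lowest score, which limits what an empty bin means.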
